A study of Homo sapiens with 12 samples.

Results

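The response of HCT116 cells to 5-fluorouracil (5-FU) was compared between wild-type (WT) cells and cells lacking miR-34a, miR-34b and miR-34c (miR-34a/b/c-KO). For every gene the change after 5-FU in KO cells was set against the change after 5-FU in WT cells, so that the reported value, the interaction, is (KO 5-FU minus KO DMSO) minus (WT 5-FU minus WT DMSO) on the log2 scale. A positive interaction means a higher response in KO cells, and a negative one a lower response, whatever the sign of the responses themselves. Genes entered by 1 rule, at least 20 counts in at least 1 library, which 16123 of the 60580 listed genes (26.6%) met. Every gene that met it was tested.

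HCT116 is a human colorectal cancer line with functional p53. The 4 groups were WT cells given the solvent DMSO (labelled control), WT cells given 5-FU, miR-34a/b/c-KO cells given DMSO and miR-34a/b/c-KO cells given 5-FU. The study's methods state 4 µM 5-FU for 48 h. The KO cells had lost the stretches that encode the mature miRNAs, removed with CRISPR-Cas9, and were grown from single cells, as were the WT cells, which had received the Cas9 plasmid with no guide. The labels do not tie a library to a clone, so p-values measure the spread between these libraries, which may be technical, and a trait of a clone cannot be told apart from the loss of the miRNAs. Each group was labelled with 3 libraries. The file of WT 5-FU replicate 1 held the same count as that of WT DMSO replicate 3 for every gene and carried that library's name in its header, and it was left out, so that WT 5-FU was represented by 2 libraries and the analysis by 11 of 12. Total counts per library were between 22831415 and 39064210, with 29236075 and 39064210 in WT 5-FU and 22831415 to 25698417 in KO 5-FU. Levels are given as CPM, the count scaled to a common library total. Of 16 genes of colon epithelium 10 entered the test, among them the keratin gene KRT8, EPCAM and the transcription factor gene CDX2 with group means of 20.4 to 23.7 CPM, while CDX1, LGALS4, GPA33, CEACAM5, CEACAM6 and TFF3 did not reach 20 counts in any library. In bulk RNA, fewer cells of a kind and less RNA per cell cannot be told apart.

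5-FU is taken up and turned into nucleotides that block thymidylate synthase and enter RNA and DNA. The resulting replication stress activates p53, which raises the CDK inhibitor p21 (CDKN1A) and, among many other genes, those of the miR-34 family. p21 keeps the pocket proteins RB1, RBL1 and RBL2 bound to E2F factors and, in the DREAM complex, to the promoters of genes of S phase and mitosis, which are then silenced. The miR-34 family binds mRNAs through its seed, bases 2 to 8 of the mature strand, and lowers their level and translation. Published targets include cyclins, CDKs, E2F factors, MET, BCL2 and FOXM1. A separate branch of the stress response runs through the transcription factor ATF4, which raises genes for amino acid synthesis, amino acid import and tRNA charging.

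The mature sequences of miR-34a-5p and miR-34b-5p are shown first because the seed, in capitals, decides which mRNAs carry a match. That of miR-34c-5p, also deleted, was not among the sequences used here. miR-34b-5p holds the seed of miR-34a-5p moved by 1 base. The sequences are those of RefSeq on GRCh38.p14.
hsa-miR-34a-5p: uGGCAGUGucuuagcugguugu
hsa-miR-34b-5p: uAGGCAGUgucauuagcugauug

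The transcript MIR34AHG, from which miR-34a is cut, was the only transcript of these loci with enough counts to be tested. Its values were 4.69, 4.46 and 5.36 CPM in WT DMSO, 17 and 15.4 in WT 5-FU, 22.5, 21.9 and 22.2 in KO DMSO and 62.8, 65.8 and 65.3 in KO 5-FU. KO libraries were above WT libraries under both conditions and the 5-FU libraries above the DMSO libraries in both genotypes, with an interaction of -0.19 ± 0.12 (± SE throughout, adjusted p = 0.23). The rest of the host transcript lies outside the deleted stretch, so that its level does not check the deletion.

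A gene was called when the adjusted p of the quasi-likelihood test was below 0.05 and the difference between the responses was above 1.5-fold. By that rule 551 genes, 3.42% of those tested, were higher in KO cells and 1073, 6.66%, were lower. With the adjusted p alone the counts were 1622 higher (10.1%) and 2585 lower (16%). Of the called genes 66.1% were lower. That share moved with the scaling of the libraries, to 55.5% with TMM factors, 56.4% with library totals and 48.9% with DESeq2, and to 52.7% with 1 factor of unwanted variation (RUVg), so the share of each direction depended on the scaling. The median interaction over all genes was -0.095, and medians of lists are given to be read against it. At an unadjusted p below 0.05 there were 6203 genes.

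The called genes came from unlike pairs of responses. In WT cells 2978 genes rose after 5-FU (18.5%) and 1512 fell (9.38%). In KO cells 2137 rose (13.3%) and 1932 fell (12%). Among the 551 genes higher in KO, 207 (37.6%) fell in WT cells and were not called in KO cells, 139 (25.2%) were not called in WT cells and rose in KO cells, and 61 (11.1%) rose in both. Opposite calls, down in WT and up in KO, were made for 6 of them, which include the cyclin gene CCNE2 and the cohesin acetyltransferase gene ESCO2. Another 125 (22.7%) were called in neither genotype and passed the test only as a difference, and 13 fell in both. Among the 1073 genes lower in KO, 412 (38.4%) rose in WT cells and were not called in KO cells, 265 (24.7%) were not called in WT cells and fell in KO cells, 135 (12.6%) rose in both, 36 fell in both, 25 rose in WT and fell in KO, and 200 (18.6%) were called in neither. A call in 1 genotype and none in the other is part of how a difference arises and is no separate result.

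**Figure D1:**
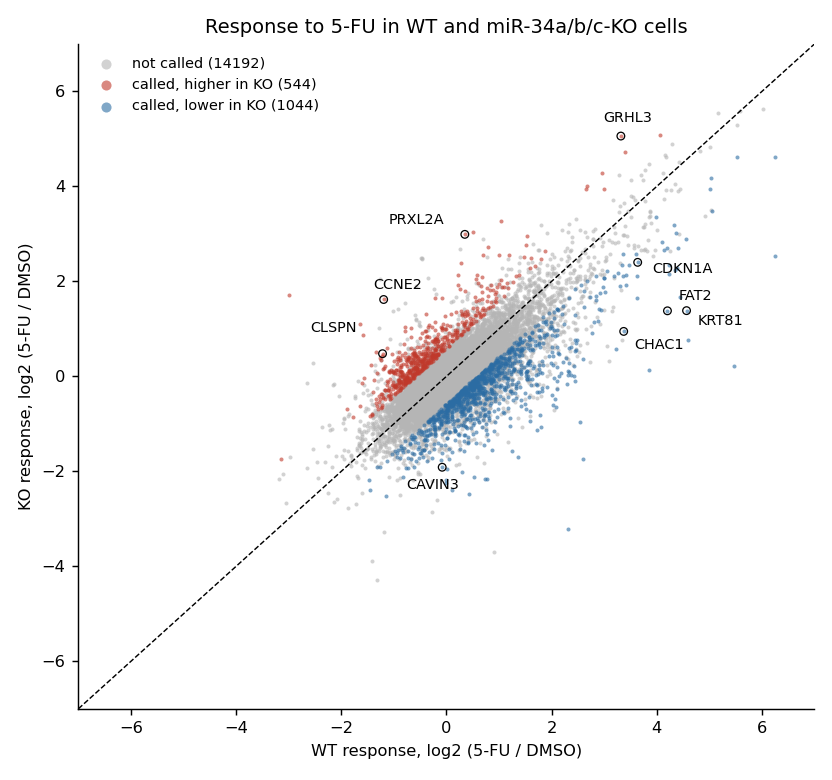
Each point is a gene, with the WT response to 5-FU on the horizontal axis and the KO response on the vertical axis, both as log2 of 5-FU over DMSO; the dashed line marks equal responses. The 544 genes called higher in KO lie above the line and the 1044 called lower lie below it, while 343 genes with a group at or under 3 counts are not drawn.

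**Figure D2:**
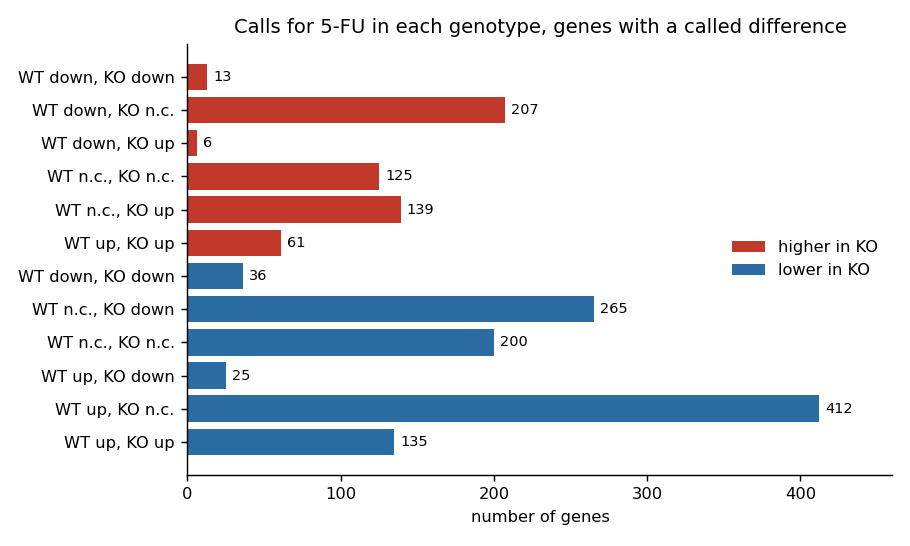
Bars give the number of genes with a called difference for each pair of calls, where n.c. means not called in that genotype. The longest bar among genes lower in KO is the 412 that rose in WT and were not called in KO, and among genes higher in KO the 207 that fell in WT and were not called in KO.

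The same value can be read as a change of the genotype difference between DMSO and 5-FU. Without the drug 1467 genes were higher in KO cells than in WT cells (9.10%) and 802 lower (4.97%), and with the drug 1222 were higher (7.58%) and 1702 lower (10.6%). For the 551 genes with the higher response the median genotype difference was -0.30 in DMSO and 0.55 in 5-FU. For the 1073 with the lower response it was 0.42 and -0.51. Of the 551, 238 (43.2%) had no called difference in DMSO and were higher in KO under 5-FU, while 74 (13.4%) were lower in KO in DMSO and had no called difference under 5-FU. Of the 1073, 369 (34.4%) were lower in KO under 5-FU only by call and 311 (29.0%) were higher in KO in DMSO only by call. The libraries of the 2 genotypes did not overlap under 5-FU for 491 of the 551 genes and 854 of the 1073, against 10159 of all 16123 genes. Genes with the lower response were also less abundant, with a median level of 7.37 CPM against 22.0 CPM for the 551 and 23 CPM for all genes tested.

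Genes of DNA replication, its control and its repair had a higher response in KO cells in many cases. Across 9 lists of cell cycle and DNA repair genes with 293 tested members, 116 (39.6%) were called higher, against 3.42% of all genes, and 1 was called lower. They made up 21.1% of the 551 genes. The lists were written with earlier results of these data known, so these counts describe the lists and are not independent evidence of their direction. The median response of the 293 genes was -0.52 in WT and 0.00 in KO cells, and their median genotype difference was -0.31 in DMSO and 0.20 in 5-FU.

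**Figure D3:**
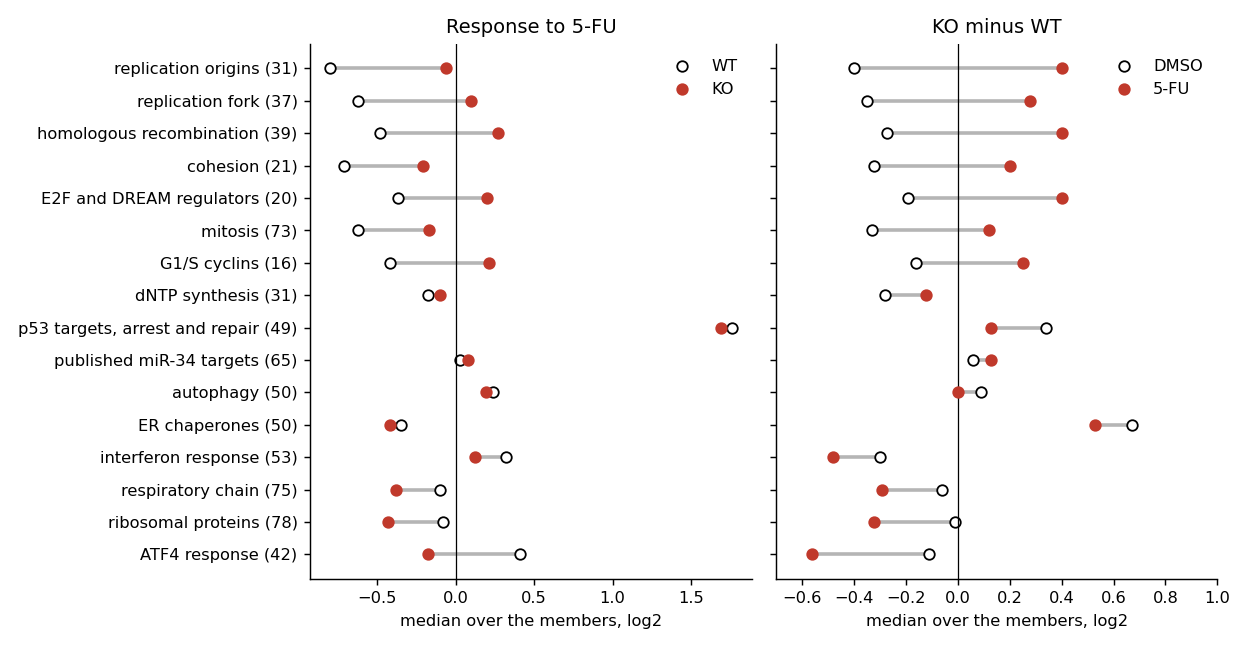
For 16 gene lists (tested members in parentheses) the left panel gives the median response to 5-FU in WT (open) and KO cells (filled), and the right panel the median difference between KO and WT in DMSO (open) and in 5-FU (filled), all in log2. The 7 lists at the top, from replication origins to G1/S cyclins, moved from below to above 0 in the right panel, and the ATF4 response moved from -0.11 to -0.56.

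The cyclins and kinases that drive entry into S phase were led by CCNE2, which encodes cyclin E2, a partner of CDK2. CCNE2 (chromosome 8, bases 94879770 to 94896678, minus strand) was at 23.2, 22.6 and 22.2 CPM in WT DMSO, 8.89 and 11 in WT 5-FU, 20.6, 18.3 and 21.4 in KO DMSO and 61.1, 62.7 and 61.6 in KO 5-FU. The DMSO values of the genotypes lay close together, whereas the 5-FU values were the lowest of all libraries in WT cells and the highest in KO cells. CCNE2 changed by -1.19 ± 0.096 in WT cells and 1.62 ± 0.078 in KO cells, and its interaction of 2.81 ± 0.12 (adjusted p = 1.34e-09) was the highest among called genes with a mean of at least 5 CPM.

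CDC25A, the phosphatase that activates CDK2, had 40.8, 40.7 and 38.2 CPM in WT DMSO and 20.3 and 18.5 in WT 5-FU, against 35.4, 37.2 and 34.6 in KO DMSO and 48.9, 51 and 49 in KO 5-FU. It fell in WT cells, and under 5-FU the genotypes were apart by far more than their libraries, with an interaction of 1.51 ± 0.097 (adjusted p = 6.27e-08). CDK2 itself had an interaction of 0.88 ± 0.078 and CCNE1, the other cyclin E gene, of 0.65 ± 0.11. Of the 16 tested members of this list 6 were called higher and none lower, with a median interaction of 0.31. The remaining called members were CCNA2 at 0.83 and CDKN2C at 0.95, both named after their values were seen.

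The E2F factors, pocket proteins and MuvB subunits, which control the genes below, were called higher in 9 of 20 cases and lower in none, with a median of 0.49. E2F1, an activating E2F, was at 47.3, 45.4 and 48.2 CPM in WT DMSO, 29 and 22.4 in WT 5-FU, 41.4, 44.8 and 39.1 in KO DMSO and 48.8, 47.6 and 50.7 in KO 5-FU. Only the 2 WT 5-FU libraries stood below the rest. Its interaction was 1.10 ± 0.12 (adjusted p = 1.26e-05). E2F8, an atypical repressor that is itself an E2F target, had 39, 42.7 and 40.2 CPM in WT DMSO, 30.3 and 30.9 in WT 5-FU, 24, 23 and 22.5 in KO DMSO and 46.1, 46.4 and 42.5 in KO 5-FU. In DMSO the KO libraries were below the WT libraries and in 5-FU above them, so the genotype difference turned from -0.81 to 0.56, with an interaction of 1.37 ± 0.098 (adjusted p = 1.97e-07). E2F7, the other atypical member and a p53 target, rose in both genotypes, by 0.96 in WT and 1.87 in KO cells. E2F2 had an interaction of 1.2 ± 0.11 and MYBL2, the MuvB partner of S phase, of 0.99 ± 0.11. FOXM1, the activator of mitotic genes and a published miR-34 target, had -0.31 in WT and 0.17 in KO cells, with an interaction of 0.48 ± 0.075 (adjusted p = 0.00025) that stayed under the 1.5-fold limit.

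MYBL1, a relative of MYBL2 outside the lists, belonged to the genes that rose in KO cells without a call in WT cells. Its libraries had 18.2, 21.4 and 19.8 CPM in WT DMSO, 20.2 and 25.9 in WT 5-FU, 21.3, 18.9 and 19.7 in KO DMSO and 79.99, 74.3 and 73.2 in KO 5-FU. Only KO 5-FU stood apart, and the interaction was 1.71 ± 0.14 (adjusted p = 4.97e-07).

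Origin licensing and firing, by which the MCM helicase is loaded and started, was the list with the highest median. Of its 31 members 19 (61.3%) were called higher and none lower, and 29 had a positive value, against 6390 of all 16123 genes. The median was 0.78 for the interaction, -0.80 for the WT response and -0.06 for the KO response. MCM10, which helps to start the helicase, was at 69.3, 71.2 and 68.9 CPM in WT DMSO, 33 and 37.3 in WT 5-FU, 52.2, 54.8 and 51.1 in KO DMSO and 65.4, 64.4 and 67.8 in KO 5-FU. WT cells went from the highest to the lowest values, and KO cells from intermediate values to somewhat higher ones, still below WT DMSO. The interaction of MCM10 was 1.31 ± 0.087 (adjusted p = 7.89e-08), that of the loading factor CDC6 0.94 ± 0.08, and that of CDC45, a helicase subunit, 1.08 ± 0.10. MCM4, a subunit of the helicase ring, fell by 1.14 in WT cells and had -0.19 in KO cells. GMNN, which encodes the licensing inhibitor geminin, was called higher with the factors it restrains, at 1.09 ± 0.10.

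Polymerases, clamp loaders and fork factors were called higher in 22 of 37 cases, with a median of 0.65. CLSPN encodes claspin, the fork protein through which ATR activates CHK1. CLSPN (chromosome 1, bases 35720218 to 35769978, minus strand) had 70.2, 80.5 and 71 CPM in WT DMSO, 31.2 and 32.5 in WT 5-FU, 53, 54.5 and 55.6 in KO DMSO and 74.2, 75.8 and 77.3 in KO 5-FU. The WT 5-FU libraries stood below all others, and the KO 5-FU libraries overlapped those of WT DMSO. Its interaction of 1.69 ± 0.09 (adjusted p = 1.23e-08) was the highest of the list. ATAD2, a chromatin ATPase, differed already without the drug, with 338 CPM in WT and 165 CPM in KO cells as group means, and had an interaction of 1.32 ± 0.086. FEN1, the flap endonuclease of the lagging strand, was at 1.25 ± 0.078, the nuclease DNA2 at 1.02 ± 0.12 and the polymerase subunit POLE2 at 1.07 ± 0.17. The single member called lower was POLD4, named after its value was seen, at -1.08. It encodes the small subunit of polymerase delta.

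**Figure D4:**
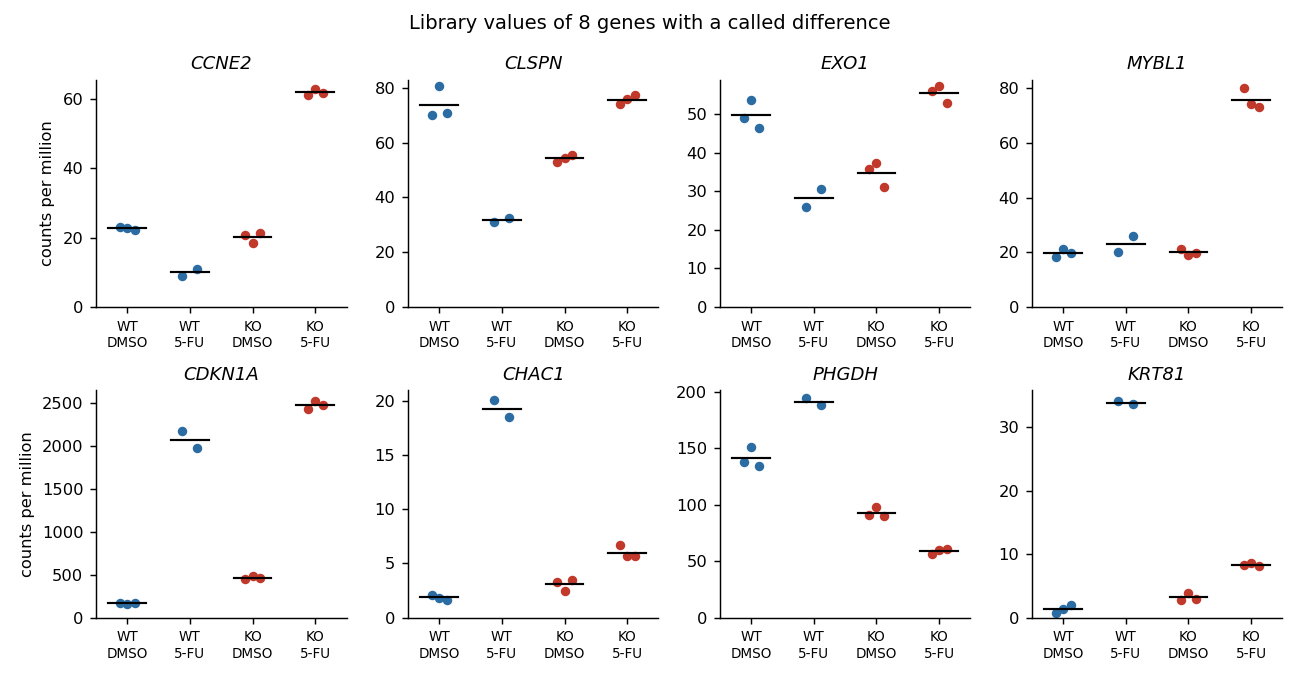
CPM of 8 genes in each of the 11 libraries (blue, WT; red, KO); black bars are group means. CCNE2, CLSPN, EXO1 and MYBL1 were higher in KO than in WT under 5-FU, CHAC1, PHGDH and KRT81 were lower, and CDKN1A rose from unequal DMSO levels to similar 5-FU levels.

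Stretches of promoters are printed for 6 of these genes because E2F and DREAM act through short words near the start site. They run from 120 bases before to 20 bases after the start of the transcript, on the coding strand, from RefSeq (GRCh38.p14). Capitals mark an E2F word (TTTCCCGC, TTTGGCGC, TTTCGCGC or TTTGCCGC) or a CHR word (TTTGAA or TTCGAA) on either strand.
CLSPN (chr1:35769959-35770098, minus strand): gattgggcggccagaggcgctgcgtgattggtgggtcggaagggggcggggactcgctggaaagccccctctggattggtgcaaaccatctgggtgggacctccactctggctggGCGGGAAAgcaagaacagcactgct
DTL (chr1:212035628-212035767, plus strand): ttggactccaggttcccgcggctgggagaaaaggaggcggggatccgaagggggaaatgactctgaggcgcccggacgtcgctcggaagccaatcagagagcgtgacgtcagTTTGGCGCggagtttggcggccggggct
CDC25A (chr3:48188398-48188537, minus strand): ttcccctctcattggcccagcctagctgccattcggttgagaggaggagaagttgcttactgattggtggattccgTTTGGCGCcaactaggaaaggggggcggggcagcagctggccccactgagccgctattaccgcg
EXO1 (chr1:241848084-241848223, plus strand): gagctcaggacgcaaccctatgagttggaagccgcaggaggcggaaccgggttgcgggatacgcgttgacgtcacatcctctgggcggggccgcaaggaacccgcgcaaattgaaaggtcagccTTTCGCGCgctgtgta
E2F1 (chr20:33686366-33686505, minus strand): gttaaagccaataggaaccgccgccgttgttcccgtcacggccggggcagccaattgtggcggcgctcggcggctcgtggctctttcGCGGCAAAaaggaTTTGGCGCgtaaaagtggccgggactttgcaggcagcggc
SKA3 (chr13:21176533-21176672, minus strand): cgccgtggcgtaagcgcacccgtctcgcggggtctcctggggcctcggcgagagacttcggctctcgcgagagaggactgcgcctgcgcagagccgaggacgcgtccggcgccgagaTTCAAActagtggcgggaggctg

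CLSPN, DTL, CDC25A and EXO1 carried 1 E2F word each, E2F1 carried 2 and SKA3, a kinetochore gene, 1 CHR word. The genes printed are examples that all held a word, so they do not stand for the called genes. Many members of the lists held no E2F word, as the shares below show. DTL, the adaptor that marks CDT1 and p21 for degradation at forks, had an interaction of 1.58 ± 0.093 (adjusted p = 2.7e-08). Among all 35116 promoter windows of 300 bases, 250 before and 50 after the start, 3.31% held an E2F word and 16.4% a CHR word. The E2F share was 50% of 26 windows for origin genes, 36.7% of 30 for fork genes, 20.6% of 34 for recombination genes and 8.47% of 59 for mitotic genes. The CHR share was 72.9% for the mitotic genes and 7.69% for the origin genes. These lists hold genes long known for such words, so the shares describe their promoters. A window was found for 74.6% of the 551 and 61.2% of the 1073 called genes, under 80%, and no share is given for them.

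Homologous recombination and the Fanconi pathway repair the breaks and blocked forks that 5-FU leaves. Here 23 of 39 members (59.0%) were called higher and none lower, with medians of -0.48 in WT and 0.27 in KO cells. EXO1, the nuclease that resects broken ends, was at 49, 53.6 and 46.4 CPM in WT DMSO, 26 and 30.6 in WT 5-FU, 35.9, 37.4 and 31.2 in KO DMSO and 55.9, 57.3 and 52.8 in KO 5-FU. It fell in WT cells and rose in KO cells by 0.67, and the interaction was 1.48 ± 0.12 (adjusted p = 6.61e-07). BRCA1 had 73.3, 77.7 and 71.6 CPM in WT DMSO, 45 and 44.5 in WT 5-FU, 46.6, 45.8 and 44 in KO DMSO and 60.8, 60.1 and 55.3 in KO 5-FU. WT 5-FU and KO DMSO libraries were at nearly the same level, the WT DMSO libraries were the highest, and the interaction was 1.10 ± 0.085. RAD54L, a motor of strand invasion, rose in KO cells by 1.05 and had -0.27 in WT cells. RAD51AP1 had an interaction of 1.18 ± 0.12.

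Cohesion and condensin genes were called higher in 9 of 21 cases, and all 21 values were positive, against 6390 of all 16123 genes. ESCO2, which acetylates cohesin in S phase, fell in WT cells and rose in KO cells, with 49.6 and 31.3 CPM as WT means and 34.4 and 61.4 CPM as KO means. Its interaction was 1.5 ± 0.11 and that of sororin (CDCA5), which holds sister chromatids together, 1.10 ± 0.079. For uracil excision and mismatch repair 4 of 25 were called higher (16%, against 3.42% of all genes) and none lower. Among them were the glycosylase UNG at 0.74 ± 0.074, the mismatch protein MSH6 at 0.62 ± 0.079, and PARP2 at 0.96 ± 0.092. UNG fell in WT cells, by 1.21, and had -0.46 in KO cells.

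The list of thymidylate, folate and nucleotide synthesis holds the enzyme that 5-FU blocks and also general purine and pyrimidine enzymes such as GART and CAD. Of its 31 members 3 were called higher (9.68%, against 3.42%) and none lower, with a median of 0.09. RRM2, the limiting subunit of ribonucleotide reductase, had 486, 522 and 467 CPM in WT DMSO, 443 and 488 in WT 5-FU, 375, 389.7 and 365 in KO DMSO and 766, 765 and 754 in KO 5-FU. Only the KO 5-FU libraries were raised, and the interaction was 1.10 ± 0.081 (adjusted p = 2.11e-07). RRM1 was at 0.72 ± 0.076 and the salvage kinase DCK at 1.09 ± 0.12. TYMS, the thymidylate synthase that 5-FU inhibits, had 0.32 ± 0.083 (adjusted p = 0.0102), under the fold limit. Among enzymes and transporters of 5-FU itself 1 of 22 was called lower, the cytidine deaminase CDA at -1.17 ± 0.11, and 1 higher, the efflux pump ABCG2 at 0.71, named after its value was seen. Each is 4.55% of the list, against 6.66% of all genes called lower and 3.42% called higher.

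Of 73 genes of mitosis, the spindle and the kinetochore, 21 (28.8%) were called higher and none lower, and the median was 0.43, from -0.62 in WT and -0.17 in KO cells. KIF20A, a kinesin of cytokinesis, was at 112, 128 and 106 CPM in WT DMSO, 66.7 and 76.7 in WT 5-FU, 84.3, 78.8 and 83.8 in KO DMSO and 100.1, 104 and 98.9 in KO 5-FU. WT 5-FU libraries were the lowest, and the WT response was called while the KO response was not, with an interaction of 0.98 ± 0.10 (adjusted p = 5.82e-06). The kinetochore genes SKA1 at 1.12 ± 0.13 and SKA3 at 0.89 ± 0.093 were called higher too. PLK1, the kinase of mitotic entry, went the other way, with 150.3, 162 and 145 CPM in WT DMSO, 71.7 and 66.7 in WT 5-FU, 138, 144 and 135 in KO DMSO and 46.1, 47.4 and 44.4 in KO 5-FU. It fell in both genotypes, and its interaction of -0.46 ± 0.081 (adjusted p = 0.000668) stayed under the fold limit. CCNB1, the mitotic cyclin, fell by 0.89 in WT and by 0.97 in KO cells, with no difference past the test (adjusted p = 0.554). With 1 RUVg factor the count of called mitotic genes was 11, that of recombination genes 13, that of cohesion genes 4 and that of excision and mismatch repair genes 2, and with any single library left out the mitotic count was between 17 and 30.

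Of the 40 lists the ATF4 list held the largest share of genes called lower in KO cells. Of 42 members 16 (38.1%, against 6.66% of all genes) were called lower and none higher, with a median response of 0.41 in WT and -0.18 in KO cells and a median interaction of -0.44. CHAC1, which degrades glutathione and is a sensitive ATF4 target, was at 2.13, 1.81 and 1.65 CPM in WT DMSO, 20.01 and 18.4 in WT 5-FU, 3.3, 2.47 and 3.49 in KO DMSO and 6.7, 5.65 and 5.64 in KO 5-FU. It rose in both genotypes, by 3.37 and 0.95, and only WT 5-FU libraries reached high values. The interaction was -2.42 ± 0.21 (adjusted p = 7.82e-07).

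ASNS, the asparagine synthetase, had 95.4, 112 and 86.2 CPM in WT DMSO, 144 and 184 in WT 5-FU, 83.7, 81 and 82 in KO DMSO and 58, 62.1 and 57.1 in KO 5-FU. It rose in WT cells while KO cells had their lowest values under 5-FU, and the interaction was -1.22 ± 0.13. The serine synthesis enzyme PHGDH had 138, 151 and 134 CPM in WT DMSO, 194 and 188 in WT 5-FU, 91.1, 98 and 90.4 in KO DMSO and 56.4, 59.7 and 60.8 in KO 5-FU. The genotypes were apart in DMSO and further apart in 5-FU, with an interaction of -1.10 ± 0.081 (adjusted p = 2.11e-07). PSAT1, the next enzyme of serine synthesis, rose in WT cells by 1.03 and had 0.07 in KO cells. ATF4 itself, named after its value was seen, was called lower at -0.74, as was the cystine carrier gene SLC7A11 at -1.44, chosen in the same way. By contrast DDIT3, the death-linked factor CHOP, which overlaps MARS1 on the opposite strand, had 0.01 ± 0.17 and the pseudokinase gene TRIB3 -0.23 ± 0.12, neither past the test. The 50 genes of ER chaperones, folding enzymes and ER-associated degradation had no call in either direction and a median of -0.04. Their median genotype difference was nevertheless 0.67 in DMSO and 0.53 in 5-FU. At an adjusted p below 0.05 alone, 4 of the 50 were higher and 12 lower, against 1622 and 2585 of all 16123 genes.

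The promoter of CHAC1 is shown because it held the word TGATGCAA, here on the opposite strand, which ATF4 and C/EBP factors share as a composite site. The stretch lies upstream of the start of the transcript.
CHAC1 (chr15:40953241-40953380, plus strand): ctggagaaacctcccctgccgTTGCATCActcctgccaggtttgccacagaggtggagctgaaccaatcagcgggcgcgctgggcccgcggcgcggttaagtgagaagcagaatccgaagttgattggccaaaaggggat

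The word stood in 8 of 34 windows of the ATF4 list (23.5%) and in 0.866% of all 35116 windows. The list holds genes known for this word, so the share describes their promoters.

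Targets of p53 in arrest and repair rose in both genotypes, 45 of 49 in WT and 44 of 49 in KO cells, and most showed no called difference. Their medians were 1.76 and 1.69. Of the 49, 5 were called lower and none higher, 10.2% against 6.66%. By adjusted p alone 22 were lower and 7 higher, against 2585 and 1622 of all 16123 genes. The median interaction was -0.23, against -0.095 over all genes. In DMSO 15 of the 49 were called higher in KO than in WT cells and 1 lower, against 1467 and 802 of all genes. CDKN1A, which encodes p21, was at 167, 166 and 168 CPM in WT DMSO, 2179 and 1977 in WT 5-FU, 453, 488 and 467 in KO DMSO and 2431, 2534 and 2477 in KO 5-FU. The KO libraries were higher than the WT libraries in DMSO and a little higher under 5-FU, so that the response was 3.64 in WT and 2.40 in KO cells and the interaction -1.24 ± 0.068 (adjusted p = 1.41e-08). The genotype difference of CDKN1A was 1.49 in DMSO and 0.26 in 5-FU.

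TP53I3, an oxidoreductase gene, had the same form, with 16.8, 16.7 and 16 CPM in WT DMSO, 302 and 263 in WT 5-FU, 41.4, 47.9 and 46.4 in KO DMSO and 317, 329 and 319.7 in KO 5-FU. KO libraries were above WT libraries under both conditions, by 1.46 and 0.19, and the interaction was -1.27 ± 0.094 (adjusted p = 2.11e-07). PLK2, a stress kinase gene, was at -1.23 ± 0.072 with a genotype difference of 1.12 in DMSO and -0.11 in 5-FU. The other called members were ABCA12 at -1.36 and TRIM22 at -0.84, both named after their values were seen. SESN1, a sestrin, had 0.02 ± 0.095 and the secreted factor GDF15 -0.42 ± 0.12 (adjusted p = 0.013), the latter with 648 CPM in WT 5-FU and 1414 CPM in KO 5-FU as means.

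MDM2, the ubiquitin ligase of p53, differed from these in the order of the 5-FU levels. It had 142, 146 and 134 CPM in WT DMSO, 1005 and 1232 in WT 5-FU, 197, 189 and 192 in KO DMSO and 818, 794 and 822 in KO 5-FU. KO libraries were above WT in DMSO and below WT in 5-FU, with an interaction of -0.92 ± 0.094 (adjusted p = 4.79e-06). The phosphatase gene PPM1D rose in both genotypes with 0.32 ± 0.065, under the fold limit. The p53 relative TP73, an E2F target, was called higher at 0.96 ± 0.13. Of the 11 genes in this feedback list 1 was called higher and 1 lower (9.09% each, against 3.42% and 6.66% of all genes).

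Of 18 BCL2 family members, which decide on apoptosis, 3 were called higher and 3 lower (16.7% each, against 3.42% and 6.66%), with a median of 0.06. The lower count was 1 without WT 5-FU replicate 2 and with DESeq2 and 5 without WT 5-FU replicate 3, and 1 RUVg factor left 1 higher and 0 lower. BCL2L1, which encodes the survival protein BCL-XL, had 244, 254 and 269 CPM in WT DMSO, 529 and 481 in WT 5-FU, 318, 336 and 332 in KO DMSO and 379, 383 and 384 in KO 5-FU. Its rise after 5-FU was called in WT cells, at 0.98, and was 0.22 in KO cells, with an interaction of -0.77 ± 0.078. BCL2L11, which encodes the killer protein BIM, had 26.8, 29 and 29.2 CPM in WT DMSO, 22.8 and 24.5 in WT 5-FU, 23.9, 24.1 and 23.3 in KO DMSO and 41.7, 39.96 and 38.6 in KO 5-FU. It rose in KO cells and not by call in WT cells, with an interaction of 1.01 ± 0.099 (adjusted p = 2.98e-06). BAX, a pore former and p53 target, was called lower at -0.62 ± 0.12, a call lost in 10 of 22 alternatives. These include TMM factors, library totals, DESeq2, RUVg and the fits without WT DMSO replicate 2, KO DMSO replicate 2 or KO 5-FU replicate 3. The remaining calls, named after their values were seen, were HRK at -0.71, PMAIP1 at 0.60 and BCL2, a published miR-34 target, at 0.99. The death receptor gene FAS rose in both genotypes, with an interaction of 0.15 ± 0.099.

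Published direct targets of miR-34 gave few calls, in both directions. By adjusted p alone 19 of the 65 tested were higher and 13 lower, against 1622 and 2585 of all 16123 genes. Of 65 tested, 6 were called higher (9.23%, against 3.42% of all genes) and 2 lower (3.08%, against 6.66%), and the median was -0.02 against -0.09 over all genes. With 1 RUVg factor 3 were higher and 5 lower, and the lower count was 4 without WT 5-FU replicate 2 and 1 without KO DMSO replicate 2 or KO 5-FU replicate 1. The 6 were CCNE2, GMNN at 1.09 and AREG at 1.03, and, named after their values were seen, BCL2 at 0.99, the checkpoint ligand gene CD274 at 0.99 and ULBP2 at 0.82. The 2 were HNF4A at -1.69 and IL6R at -0.67, named in the same way. MET, a receptor kinase gene and a long-known target, fell in neither genotype by call, with -0.52 in WT and -0.54 in KO cells and an interaction of -0.02 ± 0.084 (adjusted p = 0.878). MYC was at -0.24 ± 0.082 (adjusted p = 0.0408).

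Genes with a match to the seed of miR-34a-5p in the 3′ UTR had shares of calls near those of other genes. The site CACTGCC was searched in the UTR of the canonical transcript of 13091 tested genes (GENCODE release 44). The 8mer CACTGCCA was found for 770 genes, of which 4.16% were called higher and 5.32% lower, with a median interaction of -0.04. The shorter site without the final A was found for 1531 genes, of which 3.20% were called higher and 6.01% lower, with a median of -0.05. Of the 10016 genes with neither these sites nor ACTGCCA, 3.90% were higher and 6.24% lower, with a median of -0.07. UTRs with sites were longer, with a median of 2616 bases for the 8mer against 979 bases for no site, and within each of 4 equal classes of UTR length the medians with and without a site differed by at most 0.05.

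Autophagy genes, a process linked to ATG9A and ULK1 as published targets, gave no larger share of calls than all genes did. Of 50 tested, 2 were called lower (4%, against 6.66%) and none higher, with a median of -0.05. By adjusted p alone 2 members were higher and 8 lower, against 1622 and 2585 of all 16123 genes. ATG9A had 0.14 ± 0.087 (adjusted p = 0.251), ULK1 0.25 ± 0.10 (adjusted p = 0.0824) and the receptor SQSTM1 0.02 ± 0.071. The calls were WIPI1 at -0.63 ± 0.12, lost in 7 alternatives that include TMM factors, library totals, DESeq2, RUVg and KO 5-FU replicate 3 left out, and ATG9B at -1.06, the latter named after its value was seen. The lower count was 4 without WT 5-FU replicate 2 and 1 without KO 5-FU replicate 3. Of 48 lysosomal genes 3 were called lower, among them NAGLU at -0.79 ± 0.13, and none higher, a lower share of 6.25% that is near the background of 6.66%.

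Cytoplasmic ribosomal protein genes shifted by little and nearly all in 1 direction. Of 78, 77 had a negative interaction, against 9733 of all 16123 genes. At an adjusted p below 0.05 44 were lower, against 2585 of all genes, but only 4 of them exceeded 1.5-fold (5.13%, against 6.66%). The median was -0.31, from -0.08 in WT and -0.43 in KO cells, and it stayed between -0.39 and -0.21 under every alternative, scalings and left-out libraries included. RPL28 was at 753, 806 and 734 CPM in WT DMSO, 888 and 701 in WT 5-FU, 793, 888 and 888 in KO DMSO and 609, 595 and 575 in KO 5-FU. The KO 5-FU libraries were the lowest, and the 2 WT 5-FU libraries were far apart. Its interaction of -0.59 ± 0.11 lay at the fold limit, and the call was lost in 15 of 22 alternatives. The other called members were RPS28 at -0.85, RPL38 at -0.72 and RPS21 at -0.71, named after their values were seen. The count of called members moved with single libraries and with the processing. It was 12 without WT DMSO replicate 2, 10 without KO DMSO replicate 1 and 1 without KO DMSO replicate 3. Over 20 alternatives it ran from 0 to 12, and the 0 came from a setting that kept all 11 libraries. Processed pseudogenes share reads with ribosomal protein genes, so single values of these genes are uncertain. Nuclear genes of the respiratory chain had a median of -0.24, with 67 of 75 negative, against 9733 of all 16123 genes. Among those called lower were the complex I subunits NDUFB7 at -0.70 ± 0.15 and NDUFB10 at -0.60 ± 0.12. The NDUFB10 call was lost in 12 of 22 alternatives, TMM factors, library totals and DESeq2 among them. In all, 4 of the 75 were called lower (5.33%, against 6.66%). That count likewise ran from 0 without WT 5-FU replicate 2 to 12 without WT 5-FU replicate 3 or WT DMSO replicate 2. Genes of ribosome assembly had no call and a median of 0.00. By adjusted p alone 12 of the 82 were higher and 8 lower, against 1622 and 2585 of all 16123 genes.

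Interferon response genes were called lower in 10 of 53 cases (18.9%, against 6.66%) and higher in none, with a median of -0.17. SAMD9, an interferon-induced restriction factor, had 16.4, 13.6 and 14.9 CPM in WT DMSO, 32.9 and 47.2 in WT 5-FU, 15.4, 15.5 and 15.2 in KO DMSO and 18.6, 15.3 and 15.9 in KO 5-FU. Only the WT 5-FU libraries were raised, though unequally, and the interaction was -1.30 ± 0.17 (adjusted p = 6.35e-05). IFIT1, a sensor of foreign RNA caps, was at -1.07 ± 0.15, whereas OAS3, which makes the activator of RNase L, was at 0.56 ± 0.074, under the fold limit. The median genotype difference of the list was -0.30 in DMSO and -0.48 in 5-FU.

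Of 48 epithelial genes 38 had a negative interaction, against 9733 of all 16123 genes, and the median was -0.25, against -0.095. By adjusted p alone 20 were lower and 3 higher, against 2585 and 1622 of all genes. Of the 48, 6 were called lower (12.5%, against 6.66% of all genes) and 2 higher (4.17%, against 3.42%). The lower count was 3 without WT 5-FU replicate 2, 9 without WT 5-FU replicate 3, 3 with DESeq2 and 1 with 1 RUVg factor. KRT80, a keratin of cell junctions, had 17.9, 14.6 and 19 CPM in WT DMSO, 119 and 123 in WT 5-FU, 15.8, 14.3 and 16.2 in KO DMSO and 32.7, 33.8 and 36.3 in KO 5-FU. It rose in both genotypes, from overlapping DMSO levels, and further in WT cells, with an interaction of -1.66 ± 0.12 (adjusted p = 2.38e-07). The hair keratin gene KRT81 lay further down, with 0.758, 1.41 and 2.0 CPM in WT DMSO, 34.2 and 33.6 in WT 5-FU, 2.84, 3.83 and 2.96 in KO DMSO and 8.24, 8.7 and 8.1 in KO 5-FU. WT libraries were below KO libraries in DMSO and above them in 5-FU. It had an interaction of -3.18 ± 0.27 (adjusted p = 6.96e-07), but hair keratin genes are near copies of each other and reads may be shared. The junction gene JUP was lower at -0.76 ± 0.083 and the epithelial transcription factor gene OVOL1 higher at 0.91 ± 0.11. CDH1, which encodes E-cadherin, rose in both genotypes, with an interaction of -0.03 ± 0.074 (adjusted p = 0.817).

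Of 41 mesenchymal genes 5 were called lower (12.2%, against 6.66%) and none higher, with a median interaction of -0.17. Their median genotype difference was above 0 under both conditions, at 0.22 in DMSO and 0.14 in 5-FU. THBS1, a secreted matrix protein gene, was at 17.3, 16.8 and 15.9 CPM in WT DMSO, 114 and 130.3 in WT 5-FU, 67.8, 59.9 and 62.6 in KO DMSO and 138, 142 and 146 in KO 5-FU. The genotypes were apart in DMSO and close in 5-FU, with an interaction of -1.72 ± 0.095 (adjusted p = 1.41e-08). ADAM19, a membrane protease gene outside the lists, repeated this form with 35, 39.8 and 40.3 CPM in WT DMSO, 119.7 and 129 in WT 5-FU, 173, 182 and 172 in KO DMSO and 155, 152 and 160.5 in KO 5-FU. KO libraries were above WT libraries under both conditions, and only WT libraries moved by a called amount, with an interaction of -1.87 ± 0.083. VIM, the intermediate filament vimentin, fell in KO cells by 1.49 and had -0.52 in WT cells, from means of 12.3 CPM in KO DMSO and 2.37 CPM in WT DMSO. The repressor gene ZEB1 had 0.02 ± 0.24 (adjusted p = 0.969).

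Of 18 genes of EGFR family receptors and ligands 4 were called higher (22.2%, against 3.42% of all genes) and 1 lower (5.56%, against 6.66%), with a median of -0.03. AREG, which encodes the ligand amphiregulin, had 137, 141 and 141 CPM in WT DMSO, 200.1 and 212 in WT 5-FU, 109, 109 and 107 in KO DMSO and 328, 340.1 and 306 in KO 5-FU. KO cells went from the lowest to the highest values, with an interaction of 1.03 ± 0.075 (adjusted p = 2.07e-07). HBEGF, another ligand gene, rose in both genotypes, by 1.61 in WT and 2.5 in KO cells. EREG fell in both, by 1.77 in WT and by 0.85 in KO cells, from means of 906 CPM in WT DMSO and 318 CPM in KO DMSO. Among 42 ERK feedback and immediate early genes 7 were called higher (16.7%, against 3.42%) and 3 lower (7.14%, against 6.66%). The transcription factor gene JUN rose in KO cells by 1.32, with an interaction of 0.98 ± 0.13, and EGR1 fell by 1.29 in WT cells, with an interaction of 0.87 ± 0.12. DUSP4, a phosphatase of ERK, was lower at -0.90 ± 0.074, and its relative DUSP6 had 0.05 ± 0.077.

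Of 41 genes of lipid synthesis 3 were called lower (7.32%, near the 6.66% of all genes) and none higher, namely the desaturase gene SCD at -0.72 ± 0.063, the lanosterol synthase gene LSS at -0.73 ± 0.091 and the regulator gene SREBF1 at -0.73 ± 0.079. SCD fell in both genotypes, by 1.47 in WT and by 2.19 in KO cells. SMAD6, an inhibitor of BMP signals, rose in WT cells and fell in KO cells, with an interaction of -1.68 ± 0.15. BMP4 had -0.81 ± 0.085, and ID1, a BMP target, fell in both genotypes, with an interaction of 0.10 ± 0.085. Of 59 replication-dependent histone genes 13 were tested and 1 was called lower, H3C6 at -0.68 ± 0.24 (adjusted p = 0.0469). That is 7.69% against 6.66% of all genes, and the call was lost in 15 of 22 alternatives, TMM factors, library totals, DESeq2, RUVg and most left-out libraries among them.

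Some of the largest differences belonged to no list. PRXL2A, a peroxiredoxin-like gene, had 7.36, 7.81 and 7.09 CPM in WT DMSO, 9.87 and 8.98 in WT 5-FU, 0.961, 1.24 and 0.921 in KO DMSO and 8.16, 8.96 and 7.52 in KO 5-FU. Only KO DMSO was low, and after 5-FU the genotypes were at like levels, with an interaction of 2.64 ± 0.19 (adjusted p = 1.97e-07). CAVIN3, a caveola protein gene, had 15.5, 17.3 and 14.5 CPM in WT DMSO, 16.2 and 13.4 in WT 5-FU, 26.2, 30.1 and 28.8 in KO DMSO and 6.54, 7.92 and 8.14 in KO 5-FU. KO libraries were above WT in DMSO and below WT in 5-FU, with an interaction of -1.83 ± 0.15. FAT2, a protocadherin gene, was at 0.578, 0.309 and 0.492 CPM in WT DMSO, 9.25 and 8.19 in WT 5-FU, 3.51, 3.71 and 3.65 in KO DMSO and 9.71, 9.14 and 9.48 in KO 5-FU. It reached the same level under 5-FU from unequal DMSO levels, and the interaction was -2.82 ± 0.22.

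The transcription factor gene GRHL3, of epithelial differentiation, rose in both genotypes, by 3.32 in WT and 5.06 in KO cells, with an interaction of 1.74 ± 0.34. PAG1, an adaptor of SRC family kinases, was at 1.86 ± 0.20, TAF5, a TFIID subunit, at 1.66 ± 0.14, RIBC2 at 1.69 ± 0.27 and ZNF367 at 1.53 ± 0.091. On the other side ARHGAP24 was at -1.87 ± 0.17, ZNF608 at -1.72 ± 0.14, the guidance factor SEMA3C at -1.70 ± 0.13 and the noncoding transcript MIR1915HG at -1.73 ± 0.15. TARID, at -2.0 ± 0.45 and 0.151 CPM in WT DMSO against 11.6 CPM in KO DMSO, overlaps EYA4 and TCF21 on the opposite strand. The sources used here do not say that the counting used strand, so reads of such partners may be shared. That also holds, among others, for CCNE2 with INTS8, ADAM19 with CYFIP2, DTL with INTS7, KIF20A with CDC23 and CDK2 with PMEL. It holds as well for RAD54L with LRRC41, TAF5 with ATP5MK, TP53I3 with FAM228B and KRT8 with KRT18. The entry MATR3_2, at 1.74 ± 0.48, has no position of its own in the annotation used here and shares its name with MATR3, so its value is uncertain. RPL23AP42, a processed pseudogene of a ribosomal protein gene, had the lowest interaction of the genes named, -4.33 ± 1.28 (adjusted p = 0.0208), but its libraries had 6.71, 18.8 and 5.85 CPM in WT DMSO, 108 and 12.5 in WT 5-FU, 4.76, 35.3 and 108 in KO DMSO and 6.58, 32.8 and 4.89 in KO 5-FU. Libraries of 1 group lay far apart and the groups overlapped, so the value is uncertain.

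Medians of the interaction over the genes of a chromosome lay between -0.12 on chromosome 7 and -0.01 on chromosome 14, over 23 chromosomes. Chromosome 9, with a median genotype difference of 0.20 in DMSO and 0.13 in 5-FU, had -0.10, and chromosome 8, with -0.13 and -0.20, had -0.07. By biotype, lncRNA genes were called lower in 10.7% of 728 cases and higher in 1.10%, and pseudogenes in 15.2% and 1.06% of 282, against 6.11% and 3.83% of 13111 protein-coding genes. The median level was 1.79 CPM for lncRNA genes and 1.62 CPM for pseudogenes against 33.3 CPM for protein-coding genes. Genes at such low levels could meet the 20-count rule through 1 group alone. Genes with at least 20 counts numbered 15464 and 14901 in the WT 5-FU libraries and 14295 to 14632 in those of KO 5-FU. The shares are therefore not read as a trait of the biotypes.

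Markers of blood, endothelial, fibroblast, neural and muscle cells were tested for 9 of 20 genes. Of these, 2 were called lower (22.2%, against 6.66% of all genes) and none higher. VWF, a marker of endothelium, had 1.41, 1.46 and 1.25 CPM in WT DMSO, 6.12 and 5.59 in WT 5-FU, 0.919, 1.02 and 1.19 in KO DMSO and 1.62, 1.64 and 1.59 in KO 5-FU, and MAP2, a neural marker, was at -0.85 ± 0.15. The summed level of the 9 markers was 36.2 to 41.1 CPM in WT DMSO, 81.6 to 85.9 in WT 5-FU, 36.9 to 39.6 in KO DMSO and 66.6 to 71.5 in KO 5-FU, of which CD68, a lysosomal gene, made up the largest share in each group. The other 11, which include the defining markers PTPRC, PECAM1, CDH5, DCN, LUM and GFAP, did not reach 20 counts in any library. Among the colon genes HNF4A, at 1.8, 2.35, 0.739 and 0.304 CPM as means of WT DMSO, WT 5-FU, KO DMSO and KO 5-FU, was called lower. VIL1 was called higher, but KO DMSO was at or under 3 counts, so no fold is given.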

How the data were processed

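RNA of HCT116 cells was sequenced with random-primed libraries in 12 samples of 4 groups. The deposited values were raw counts of exon reads per gene, which the authors obtained with CLC Genomics Workbench on GRCh38 (hg38 in the submitters' processing notes) and ENSEMBL genes. Normalization and filtering by the authors were not part of the deposited counts, and strandedness is not given in the sources used here. Grouping followed the labels. WT 5-FU replicate 1 differed in 0 genes from WT DMSO replicate 3 and was counted once, as the DMSO library.

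A gene was kept if any of the 11 libraries held 20 counts or more. Counts were fitted with edgeR 4.0.16 (R 4.3.3) by the quasi-likelihood test with upper-quartile factors and 1 mean per group, two-sided and Benjamini-Hochberg adjusted over all 16123 genes. The common biological coefficient of variation was 6.72%. A call required an adjusted p below 0.05 and more than 1.5-fold. SE is the size of the log2 value divided by the square root of F, and CPM uses the same factors. Total counts were 22831415 to 39064210. The 5 contrasts share libraries, so their values for a gene are not independent. The procedure was tested on simulated data.

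Named genes were the 12 highest and 12 lowest called genes with a mean of at least 5 CPM, the 3 members of each of 40 lists with the smallest p plus preset members, and the 3 with the largest difference in each pair of responses. Members and lists were chosen with earlier results of these data known. Some genes are not reported here. Alternatives were TMM, library totals, DESeq2 1.42.0, RUVg, other filters and fold rules, counts drawn down to the smallest library, a replicate block, the identical library kept as labelled, and each library left out. Sequences came from RefSeq (GRCh38.p14) and UTRs and positions from GENCODE release 44 on GRCh38, matched by symbol for 14135 of 16123 genes.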

Additional observations from a re-analysis of the deposited data

Results flagged for a closer look

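The responses of the genotypes to 5-FU differed by the test of the interaction itself for 551 genes with a higher and 1073 genes with a lower response in KO cells. Every called gene meets this criterion by construction, and the values of the named genes are those given above. Single genes were not screened for a library apart from the rest of its group, since no group had more than 3 libraries.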

How the results depend on the processing

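The WT 5-FU group held 2 libraries, and its spread was judged with that of the other groups. The counts of 551 higher and 1073 lower genes stayed within 1.5 times under TMM factors, library totals, both other filters and drawn-down counts. The lower count was 674 with DESeq2, where 945 adjusted p were NA, and 466 with 1 RUVg factor, which differed almost wholly between treatments. With that factor 273 of the 551 and 300 of the 1073 genes were still called and 19 called genes changed sign, and the cause was not tested. Testing against the 1.5-fold limit itself gave 135 higher and 154 lower, and no minimum fold gave 1622 and 2585, by construction. Keeping the identical library as labelled, which puts a DMSO library into WT 5-FU, gave 185 and 243. With 1 library left out the counts were 499 to 715 higher and 895 to 1253 lower, both lowest without WT 5-FU replicate 2 and highest without WT 5-FU replicate 3, where the lone WT 5-FU library is assumed to vary like the other groups. Deviations from the group means correlated at -0.211 to 0.215 between libraries with the same replicate number in their titles. Of these 15 pairs 6 were over 0.1, with a median of 0.049, against 7 of 30 pairs and a median of -0.031 for different numbers. By the numbers in the file headers 4 of 15 pairs were over 0.1, with a median of 0.008, against 9 of 30 and 0.0185. The 2 WT 5-FU libraries deviate from their mean by opposite amounts, so pairs with them are not independent. Not every pair passed 0.1, and the numbers were not taken to pair the samples. A replicate block gave 540 and 977, and a block by the numbers in the file headers, chosen after seeing the data, 548 and 973, so neither changed a count by over 1.5 times. No called gene was called in the opposite direction in any alternative. Of 202 named genes 105 kept their side of the threshold throughout. RPL23AP42 was at 0.786 with 1 RUVg factor and LRP1B, called higher at 1.40, was at -0.634 with the identical library kept, and the causes were not tested.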
